A study of Mus musculus with 8 samples.

Results

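The Wnt ligands, receptors and modulators on the array were taken by name: every gene whose symbol starts with Wnt, Fzd, Sfrp or Dkk and a number, together with Lef1, Tcf7, Axin1, Axin2, Lrp5, Lrp6 and Ctnnb1. This gave 44 genes, measured by 53 probes, of 31877 genes and 39419 probes in all. For a gene with several probes the brightest was taken. The rule applied no cut on a measured difference between the cell groups, but it was set with earlier results of these data known. RNA came from 4 sorted groups of mouse embryonic cells at E10.5 and was hybridised to 8 1-colour arrays, 2 per group. All embryos came from C57BL/6 x 129S1/SVImJ F1 females crossed with Tg(Ly6a-GFP) males, in which regulatory sequence of Ly6a drives GFP (Ly6a encodes Sca-1, a surface antigen of stem cells), so the transgene was common to every group. The labels give the sex as male. Tissue of 100 embryos was pooled, namely the aorta-gonad-mesonephros region with both the vitelline and the umbilical artery. CD31+ VEC+ ESAM+ Kit+ cells are called hematopoietic cluster cells and CD31+ VEC+ ESAM+ Kit- cells endothelial cells. The sort gave 30000 cluster cells with GFP and 130000 without, and 70000 endothelial cells with GFP and 300000 without. Each group's RNA was divided into 2 fractions that were amplified for separate arrays, so p-values measure the technical spread between arrays of divided RNA and not the spread between embryos.

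Wnt proteins are secreted lipid-modified ligands that bind Frizzled receptors at the cell surface, alone or together with the co-receptors Lrp5 and Lrp6. In the canonical branch this stops a cytoplasmic complex, built on Axin, from degrading beta-catenin, the product of Ctnnb1, which then enters the nucleus and acts with Lef1 and Tcf7 on target genes. Sfrp proteins bind Wnt ligands outside the cell, and Dkk proteins act on the Lrp co-receptors. In the embryonic aorta, Wnt signalling is known for its part in arterial endothelium and in the formation of blood stem cells.

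The core of the sequence bound by Lef1 and Tcf7 was searched for in the 250 bases before the transcription starts of the members, because both nuclear factors differed with GFP in both cell classes. RefSeq windows on build GRCm38.p6 were at hand for 29 of the 44 genes, 37 windows in all. The letters searched, on both strands, were CTTTG followed by AA, by AT, by TA or by TT. They occurred in 5 of the 37 windows (13.5%), and in 4874 of all 32851 windows (14.8%), so the members' share was near that of all genes. The windows shown belong to Lef1, to 4 other genes that differed the same way with GFP in both cell classes and to Wnt11, the ligand with the largest difference among those above background on every array. Each is written 5′ to 3′ in the direction of transcription, and the capitals mark a match.
Lef1, first listed start, chr3:131110047-131110296, plus strand: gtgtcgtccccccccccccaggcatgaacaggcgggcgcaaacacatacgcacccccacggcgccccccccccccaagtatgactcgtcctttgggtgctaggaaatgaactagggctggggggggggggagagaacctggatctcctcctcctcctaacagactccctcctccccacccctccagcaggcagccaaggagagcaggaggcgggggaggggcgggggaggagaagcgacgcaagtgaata
Lef1, furthest downstream start, chr3:131156044-131156293, plus strand: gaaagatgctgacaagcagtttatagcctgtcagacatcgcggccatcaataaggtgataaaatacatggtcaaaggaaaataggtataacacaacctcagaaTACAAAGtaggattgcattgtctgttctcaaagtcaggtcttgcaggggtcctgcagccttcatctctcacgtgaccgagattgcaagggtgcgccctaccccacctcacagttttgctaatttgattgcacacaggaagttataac
Fzd10, chr5:128600856-128601105, plus strand: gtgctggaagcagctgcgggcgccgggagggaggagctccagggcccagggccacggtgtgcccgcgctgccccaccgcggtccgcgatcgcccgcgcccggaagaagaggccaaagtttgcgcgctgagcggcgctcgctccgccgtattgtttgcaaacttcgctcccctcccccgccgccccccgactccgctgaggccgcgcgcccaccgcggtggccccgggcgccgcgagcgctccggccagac
Fzd7, chr1:59481897-59482146, plus strand: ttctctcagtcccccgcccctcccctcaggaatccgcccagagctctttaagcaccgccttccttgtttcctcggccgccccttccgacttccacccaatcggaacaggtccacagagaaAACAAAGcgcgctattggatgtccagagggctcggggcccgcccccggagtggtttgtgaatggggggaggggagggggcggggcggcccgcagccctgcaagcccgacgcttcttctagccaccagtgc
Fzd9, chr5:135251048-135251297, minus strand: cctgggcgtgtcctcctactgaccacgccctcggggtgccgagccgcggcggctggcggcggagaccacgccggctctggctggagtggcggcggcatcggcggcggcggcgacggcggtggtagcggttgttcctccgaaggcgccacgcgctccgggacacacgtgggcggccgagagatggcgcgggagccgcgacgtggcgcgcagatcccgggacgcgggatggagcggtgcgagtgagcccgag
Sfrp2, chr3:83766071-83766320, plus strand: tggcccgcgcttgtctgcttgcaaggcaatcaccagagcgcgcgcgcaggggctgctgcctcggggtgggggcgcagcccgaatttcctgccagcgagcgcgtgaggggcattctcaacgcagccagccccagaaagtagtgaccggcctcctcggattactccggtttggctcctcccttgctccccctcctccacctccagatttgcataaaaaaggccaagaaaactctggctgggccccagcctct
Wnt11, upstream start, chr7:98834862-98835111, plus strand: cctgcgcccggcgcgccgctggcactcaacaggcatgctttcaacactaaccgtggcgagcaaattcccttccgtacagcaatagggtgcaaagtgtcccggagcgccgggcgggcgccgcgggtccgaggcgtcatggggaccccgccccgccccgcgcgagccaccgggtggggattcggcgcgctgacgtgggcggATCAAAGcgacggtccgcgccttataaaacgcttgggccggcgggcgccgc
A match is in the windows of Fzd7, Wnt11 and the furthest downstream start of Lef1, and none of the searched letters is in the windows shown for Fzd10, Fzd9, Sfrp2 and the first start of Lef1. Among windows not shown, a match is in those of Dkk1, which passed no test below, and Wnt5b. None is in the other starts of Lef1 and Wnt11 or in the windows of Tcf7 and Sfrp5. The windows shown are thus no measure of how often a match occurs. A match says only that the letters occur there.

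Of the 44 members, 24 were well above background on all 8 arrays. They were all 10 Frizzled receptors, the ligands Wnt1, Wnt5a, Wnt5b and Wnt11, both Lrp co-receptors, Axin1, Ctnnb1, Lef1, Tcf7, and the antagonists Dkk2, Dkk3, Sfrp1 and Sfrp2. Another 7 (Dkk1, Sfrp5, Wnt4, Wnt6, Wnt8b, Wnt9b and Wnt16) passed this mark on the 2 arrays of some group but not on every array, and were tested too. Axin2, a scaffold that is also a textbook target of the canonical branch, exceeded background on only 3 of 8 arrays by its brightest probe and was not tested. Wnt2, Wnt7a, Wnt7b and Wnt9a did so on 1 or 2 arrays and were not tested either. The remaining 8 (Dkk4, Sfrp4, Wnt10a, Wnt10b, Wnt2b, Wnt3, Wnt3a and Wnt8a) were not well above background on any array. Thus 15 of 19 ligands and 4 of 8 antagonists, but none of the 10 Frizzled receptors, failed this mark on at least 1 array. Of all 31877 genes, 16462 met it on all 8 arrays, so the antagonists' share was near that of all genes. Below, a level is log2 of the processed signal minus the array's 75th percentile of it, a difference is on the log2 scale, and called means a limma p-value under 0.05 after Benjamini-Hochberg adjustment over all 19529 genes tested.

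The labels and the sort were checked on the same arrays. Between 55.4% and 64.5% of spots were well above background, and none was saturated. Ly6a was higher in GFP+ cells by 3.39 ± 0.17 (SE, 2 arrays a group) in cluster cells and 4.07 ± 0.17 in endothelial cells, and Kit was higher in cluster cells by 1.55 ± 0.05 among GFP+ cells and 0.64 ± 0.05 among GFP- cells. Markers of other cells were present and differed between the groups. The summed linear level of 7 mesenchyme markers, relative to the 75th percentile, was 4.72 to 4.79 in GFP+ and 10.3 to 10.4 in GFP- cluster cells, and 9.33 to 9.54 in GFP+ and 14.2 to 14.5 in GFP- endothelial cells. Of these 7, only Prrx1 in GFP+ cluster cells was not above background. For 5 erythroid markers the sum was 56.2 to 57.4 and 425 to 448 in GFP+ and GFP- cluster cells, and 60.1 to 61.05 and 292 to 294 in the endothelial groups. For 5 macrophage markers it was 11.8 to 12.2 and 3.19 to 3.55 in the cluster groups, and 3.34 to 3.55 and 1.65 to 1.68 in the endothelial groups. Of 6 neural markers, Sox2, Pax6 and Neurog2 were not above background in any group, and the other 3 were on both arrays of every group. Their sum was 0.42 to 0.48 and 0.60 to 0.62 in GFP+ and GFP- cluster cells, and 0.42 to 0.43 and 0.76 to 0.78 in the endothelial groups. Of 4 epithelial markers, Epcam was above background in no group. On both arrays, 2 were above it in GFP+ cluster cells and 3 in each other group. Neither Lyz2 nor Cd68 was above background in GFP- endothelial cells. These sums move with GFP, as do many of the members below, and their part in the members' differences was not tested. In these bulk samples, fewer cells of a type and less RNA per cell cannot be told apart.

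Most Wnt genes that differed between GFP+ and GFP- cluster cells were lower in the GFP+ cells. Of the 31 members tested, 2 were higher and 15 lower, where 11.8% and 20.9% of all genes tested were (32.7% in either direction). Among the 24 members above background on all arrays, 2 were higher and 13 lower, against 12.4% and 22.2% of the genes that met the same mark (34.5% in either direction). The median difference of the 31 was -0.27, and of all genes -0.076. In endothelial cells 7 members were higher and 10 lower in GFP+ cells, against 18.2% and 33.3% of all genes (51.5% in either direction), so the share lower was near the background and the median was -0.066 against -0.13. Of the 24 above background on all arrays, 6 were higher and 8 lower (19.9% and 33.1% of such genes, 53% in either direction). After quantile normalization 8 of the 31 were higher and 10 lower, as the share of higher among all genes called went from 35.3% to 48.3%. Lower in GFP+ cells of both classes were 8 members, Dkk3, Fzd10, Fzd2, Fzd7, Lef1, Sfrp5, Tcf7 and Wnt5b (11% of all genes were). Higher in both were Fzd9 and Sfrp2 (6.48% of all genes), and Fzd4 was lower in GFP+ cluster cells but higher in GFP+ endothelial cells (3.74% of all genes were called in opposite directions). Every called member differed the same way on both slides, which a call from 2 arrays a group nearly requires, so this adds no support. Without replicate 1 of the GFP- cluster cells the 17 calls in cluster cells fell to 11.

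**Figure D1:**
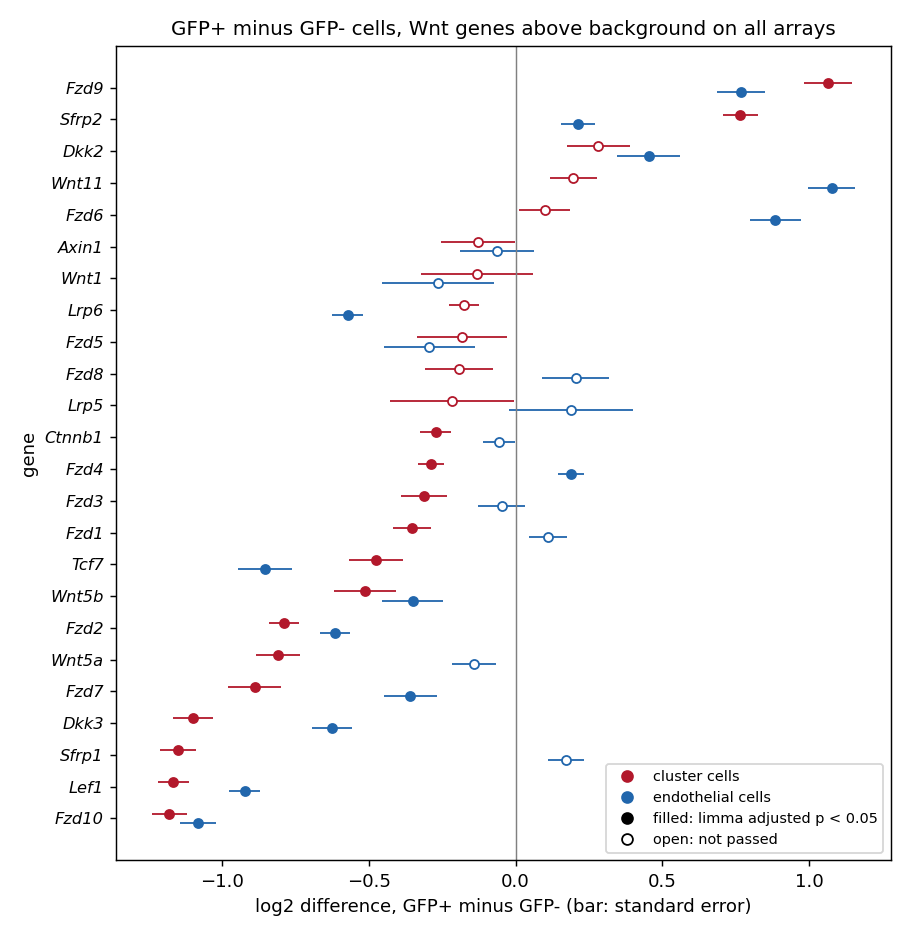
Differences between GFP+ and GFP- cells on the log2 scale for the 24 Wnt genes above background on all arrays, in cluster cells (red) and endothelial cells (blue). Points are estimates of the fit over 8 arrays, bars their standard errors, and filled points were called. Red points lie mostly left of 0, from -1.18 for Fzd10 to 1.06 for Fzd9, and the blue points of Fzd6 and Wnt11 stand at 0.88 and 1.08, away from the red ones.

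Between the cell classes, the Wnt genes that differed among GFP+ cells were mostly lower in cluster cells. Among GFP+ cells 5 of the 31 members were higher and 17 lower in cluster cells than in endothelial cells, against 26.1% and 24.2% of all genes (50.4% in either direction), with a median of -0.50 against 0.033 for all genes. Wnt8b, 1 of the 5 higher, was above background in neither group. Markers of both cell types moved with this comparison. Of 5 endothelial markers all were lower in GFP+ cluster cells, with a median of -0.63 and summed levels of 69.5 to 70.8 against 96.2 to 96.6. Of 5 blood markers 4 were higher, with a median of 2.77, while their summed levels, 85.4 to 91.7 and 88.2 to 97.7, overlapped. Their part in the members' differences was not tested. For the 24 members above background on all arrays it was 4 higher and 15 lower, against 23.7% and 26.3% (50% in either direction). Among GFP- cells 3 were higher and 8 lower, against 11.9% and 12.4% (24.3% in either direction), with a median of -0.12 against 0.0042. Of the 24 members above background on all arrays, 3 were higher and 7 lower, against 12.3% and 14.1% of such genes (26.4% in either direction). The GFP difference itself differed between the classes for 11 members, 3 with a higher and 8 with a lower value in cluster cells, where 15.7% and 15.5% of all genes were called in this interaction (31.1% in either direction). Of the 24 members above background on all arrays, 2 had a higher and 8 a lower value, against 15.6% and 16.8% of such genes (32.4% in either direction). Of the 11 interaction calls, Dkk3, Fzd7, Lrp6, Wnt8b and Fzd1 were lost without the filter on dim probes (adjusted p from 0.0612 to 0.0968). The first 4 of these, Fzd6 and Wnt5a were lost under normexp background correction without 2 spots of high background (adjusted p from 0.0523 to 0.244), and Sfrp1, Sfrp2, Fzd4 and Wnt11 under neither. Without replicate 1 of the GFP- cluster cells, or without replicate 2 of the GFP- endothelial cells, the 11 calls among GFP- cells fell to 7.

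Among the ligands, Wnt11, best known for beta-catenin independent signalling, stood at -2.20 and -2.11 in GFP+ endothelial cells and at -3.18 and -3.28 in GFP- endothelial cells. In cluster cells it was at -3.52 and -3.34 with GFP and at -3.66 and -3.59 without. The GFP+ endothelial arrays were thus above all others, with no overlap. The summed level of 3 gonad and coelom markers was also highest there, at 4.85 to 5.01 against 2.21 to 3.04 in the other groups. Of these 3 markers only Gata4 was higher with GFP in endothelial cells (1.72 ± 0.063 in log2 units). Wt1 was 0.61 ± 0.075 lower, and Nr5a1 differed by -0.32 and was not called. The part of these markers in the result was not tested. Wnt11 was 2.11-fold higher in GFP+ than in GFP- endothelial cells (1.08 ± 0.080, adjusted p = 0.000462), the difference in cluster cells of 0.20 ± 0.080 was not called (adjusted p = 0.119), and the GFP difference differed between the classes (-0.88, adjusted p = 0.00534). Among GFP+ cells it was 2.42-fold lower in cluster than in endothelial cells. Among GFP- cells it was 1.31-fold lower (adjusted p = 0.0223), a call lost when any of the 4 GFP- arrays was left out (adjusted p from 0.0628 to 0.104).

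Wnt5a, the ligand of Ror2 and of planar polarity signalling, was at -3.08 and -2.91 in GFP+ cluster cells, against -2.14 and -2.23 in GFP- cluster cells. In endothelial cells it was at -2.37 and -2.31 with GFP and at -2.24 and -2.16 without. Only the GFP+ cluster arrays stood apart, below all others. The difference with GFP was -0.81 ± 0.075 in cluster cells (adjusted p = 0.000901) and -0.14 ± 0.075 in endothelial cells (adjusted p = 0.161), and the difference between these was called (-0.67, adjusted p = 0.00901). Wnt5b, a close relative, was at -0.96 and -0.97 in GFP+ and -0.50 and -0.41 in GFP- cluster cells, and at -0.85 and -0.60 in GFP+ and -0.47 and -0.28 in GFP- endothelial cells. It was called lower with GFP in both classes (-0.51 ± 0.10 and -0.35 ± 0.10). The first call was lost without any of the 4 cluster arrays (adjusted p from 0.0548 to 0.0778), and the second without any cluster array, replicate 1 of GFP+ endothelial cells or replicate 2 of GFP- endothelial cells (adjusted p from 0.0561 to 0.159).

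Wnt9b, a ligand of the developing kidney tubule, was at -2.78 and -2.58 in GFP+ endothelial cells and not well above background in GFP- endothelial cells. By the fit it was 4.19-fold higher with GFP there (2.07 ± 0.46, adjusted p = 0.0133), an estimate that rests on a signal not above background. This call was lost without replicate 2 of GFP+ endothelial cells or either GFP- endothelial array (adjusted p from 0.0545 to 0.065). In cluster cells Wnt9b was at -3.69 and -3.52 with GFP, and at -5.25 and -3.75 without, where only replicate 2 was above background. The GFP- cluster arrays, which carry divided RNA, thus differed from each other. The GFP difference there was 0.89 ± 0.46 (adjusted p = 0.196). Without replicate 2 of the GFP- cluster cells it was called (adjusted p = 0.00301), but the 1 array left in that group was not above background, so no size is given. The summed level of 3 nephric markers ranged from 0.062 to 0.19 and was lowest in GFP+ endothelial cells, at 0.062 to 0.091. Their part in the differences of Wnt9b was not tested. Wnt6 was not above background in GFP+ cluster cells and stood between -3.96 and -2.86 in the other groups. By the fit it was 2.07-fold lower in GFP+ cluster than in GFP+ endothelial cells (adjusted p = 0.0022) and 1.44-fold lower than in GFP- cluster cells (adjusted p = 0.0363). Both estimates rest on a signal not above background. That second call was lost without any of the 4 cluster arrays or either GFP+ endothelial array (adjusted p from 0.0525 to 0.151), and under 6 of the 8 processing alternatives that kept all arrays (adjusted p of 0.0568 and above). Among GFP- cells, Wnt6 was 1.80-fold lower in cluster than in endothelial cells, a call lost without replicate 1 of GFP- cluster cells (adjusted p = 0.0672).

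Of the other ligands tested, Wnt1, Wnt4 and Wnt16, the last above background on 4 arrays, passed no test in the fit over 8 arrays. With a gene's probes averaged, Wnt1 was called higher with GFP in cluster cells and higher in cluster cells among GFP+ cells. That average includes a dimmer probe above background on 1 array. With the slide as a block, Wnt4 was called higher in cluster cells among both GFP+ (0.28, adjusted p = 0.015) and GFP- cells (0.50, adjusted p = 0.00901). Wnt8b exceeded background on 3 arrays, both of GFP- cluster cells and 1 of GFP- endothelial cells. Its difference with GFP in endothelial cells was called (adjusted p = 0.00546) and gives a bound of at least 1.40-fold lower in GFP+ cells. Its calls between classes among GFP+ cells and in the interaction involve groups with no array above background, so no size is given for them. A further probe of Wnt8b was above background on no array.

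Of the receptors, Fzd10 had the largest difference with GFP of any Frizzled gene in both classes. It stood at 0.17 and 0.08 in GFP+ and 1.35 and 1.26 in GFP- cluster cells, and at 1.15 and 1.24 in GFP+ and 2.27 and 2.29 in GFP- endothelial cells. The pairs of arrays did not overlap within either class, and GFP- cluster and GFP+ endothelial arrays were close to one another. GFP+ cells were lower by 2.27-fold in cluster cells (-1.18 ± 0.061, adjusted p = 0.000125) and 2.12-fold in endothelial cells (-1.08 ± 0.061, adjusted p = 0.000237), and these differences were not called different (-0.10 ± 0.086, adjusted p = 0.422). Cluster cells were below endothelial cells by 1.07 among GFP+ and 0.97 among GFP- cells on the log2 scale. The Fzd10 probe lies at chr5:129109798-129109857 (mm9).

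Fzd9 ran the other way, with -0.60 and -0.45 in GFP+ and -1.64 and -1.53 in GFP- cluster cells, and -1.58 and -1.56 in GFP+ and -2.42 and -2.26 in GFP- endothelial cells. The GFP+ arrays were above the GFP- arrays in each class without overlap. It was 2.09-fold higher with GFP in cluster cells (1.06 ± 0.082, adjusted p = 0.000461) and 1.70-fold in endothelial cells (0.77 ± 0.082, adjusted p = 0.00124), and higher in cluster cells at each GFP state (1.04 and 0.75). The difference between the 2 GFP differences, 0.30, was not called (adjusted p = 0.106) but was with the slide as a block (adjusted p = 0.0341). The macrophage marker sum given above was also highest in GFP+ cluster cells and lowest in GFP- endothelial cells.

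Fzd2 and Fzd7 were lower with GFP in both classes. Fzd2 was at -1.11 and -1.19 in GFP+ and -0.35 and -0.36 in GFP- cluster cells, and at -0.54 and -0.58 in GFP+ and 0.09 and 0.02 in GFP- endothelial cells, with no overlap. The GFP difference was -0.79 ± 0.051 and -0.62 ± 0.051, and a dimmer Fzd2 probe gave -0.22 ± 0.30 and -0.024 ± 0.30, the same sign but no clear difference. Fzd7, whose window holds a match, was at -3.18 and -3.07 in GFP+ and -2.15 and -2.32 in GFP- cluster cells, and at -2.55 and -2.70 in GFP+ and -2.32 and -2.20 in GFP- endothelial cells. It differed by -0.89 ± 0.091 in cluster cells (adjusted p = 0.00128) and -0.36 ± 0.091 in endothelial cells (adjusted p = 0.0208), the second call lost without replicate 2 of either endothelial group (adjusted p of 0.0921 and 0.101). A dimmer Fzd7 probe gave -0.26 ± 0.25 and -0.86 ± 0.25, so the probes disagree on which class differs more, and the called difference between classes (-0.53, adjusted p = 0.0291) had the opposite sign there (0.60 ± 0.35).

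Fzd6, a receptor of planar polarity signalling, followed the pattern of Wnt11. Its levels were -1.85 and -1.94 in GFP+ and -2.82 and -2.74 in GFP- endothelial cells, but -3.37 and -3.14 in GFP+ and -3.39 and -3.32 in GFP- cluster cells, where the groups overlapped. It was 1.85-fold higher with GFP in endothelial cells (0.88 ± 0.087, adjusted p = 0.000966), by 0.10 ± 0.087 in cluster cells (adjusted p = 0.437), with a called difference between them (-0.79, adjusted p = 0.00872). Among GFP+ cells it was 2.57-fold lower in cluster than in endothelial cells, the largest class difference among members above background on all arrays. Among GFP- cells it was 1.49-fold lower, a call lost without replicate 1 of GFP- cluster cells or replicate 2 of GFP- endothelial cells (adjusted p of 0.0582 and 0.056).

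Fzd4, a receptor of the endothelium that also binds Norrin, was at 2.86 and 2.81 in GFP+ and 3.10 and 3.14 in GFP- cluster cells, and at 3.34 and 3.32 in GFP+ and 3.13 and 3.15 in GFP- endothelial cells. The GFP+ arrays were thus below the GFP- arrays in cluster cells and above them in endothelial cells. The differences were small, -0.29 ± 0.044 (adjusted p = 0.00553) and 0.19 ± 0.044 (adjusted p = 0.0155), and differed from each other (-0.48, adjusted p = 0.00545). The endothelial call was lost without any of the 4 endothelial arrays (adjusted p from 0.0526 to 0.0722). Fzd1 was 1.28-fold lower with GFP in cluster cells (adjusted p = 0.0112), a call lost without replicate 1 of GFP- cluster cells (adjusted p = 0.0671), and differed by 0.11 in endothelial cells (adjusted p = 0.205). Fzd3 was 1.24-fold lower in GFP+ cluster cells (adjusted p = 0.0309), a call lost without any cluster array or either GFP+ endothelial array (adjusted p from 0.0559 to 0.123). Fzd5 and Fzd8 were not called with GFP in either class. Among GFP+ cells every Frizzled gene was called between the classes, 8 lower in cluster cells and 2, Fzd5 and Fzd9, higher. Of all genes above background on all arrays, 50% were called there, 26.3% lower and 23.7% higher. The calls of Fzd5, without replicate 2 of GFP+ cluster cells or either GFP+ endothelial array, and of Fzd8, without any GFP+ array or either GFP- endothelial array, were lost (adjusted p up to 0.1 and 0.189).

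**Figure D2:**
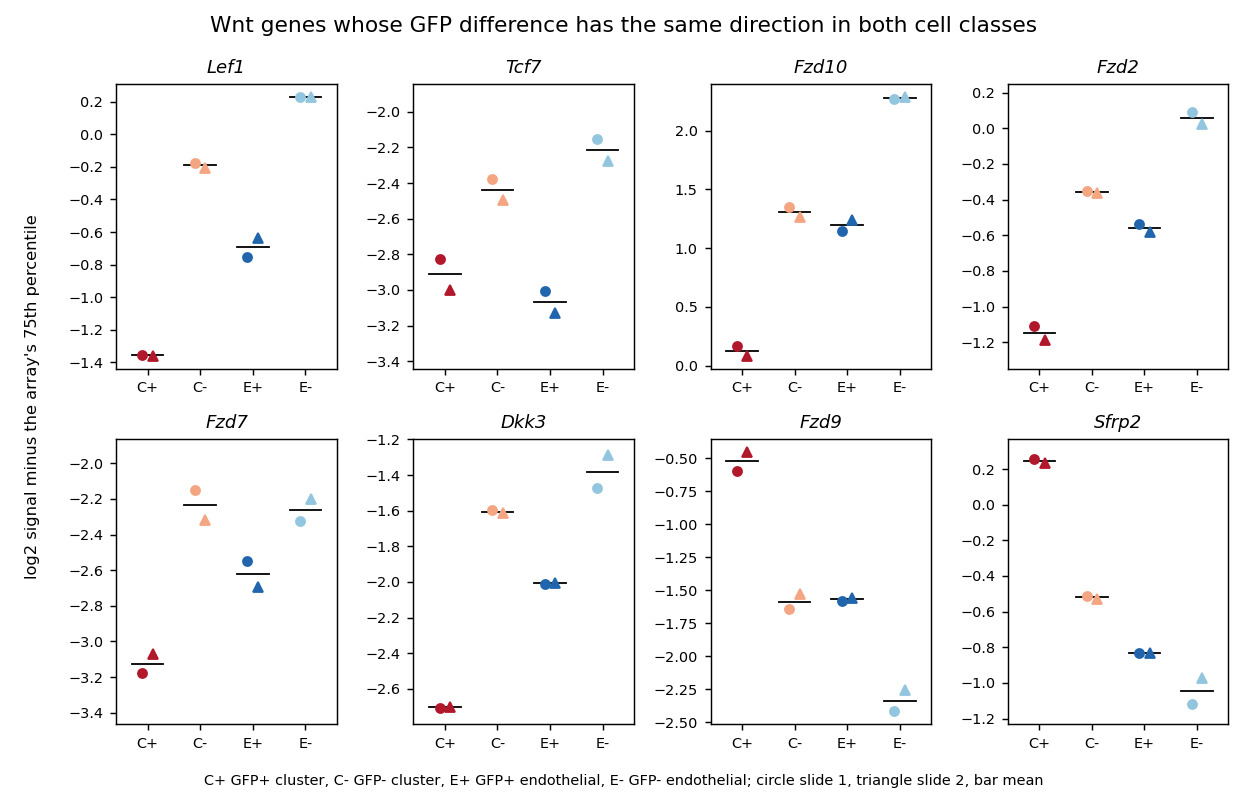
Levels on each array (log2 signal minus the array's 75th percentile) of 8 Wnt genes whose GFP difference was called in the same direction in both classes, for GFP+ and GFP- cluster cells (C+, C-) and GFP+ and GFP- endothelial cells (E+, E-). Circles are slide 1, triangles slide 2 and bars group means; each panel has its own axis. In Lef1, Tcf7, Fzd10, Fzd2, Fzd7 and Dkk3 the GFP+ arrays lie below the GFP- arrays of their class, and in Fzd9 and Sfrp2 above them.

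The co-receptor Lrp6 was at 2.24 and 2.22 in GFP+ and 2.46 and 2.35 in GFP- cluster cells, and at 1.72 and 1.74 in GFP+ and 2.30 and 2.31 in GFP- endothelial cells. The GFP+ endothelial arrays stood below all others. Lrp6 was 1.49-fold lower with GFP in endothelial cells (-0.57 ± 0.052, adjusted p = 0.000791), and the difference in cluster cells was -0.18 ± 0.052 (adjusted p = 0.0505, and 0.0485 without replicate 2 of GFP- cluster cells). The GFP difference differed between the classes (0.40, adjusted p = 0.014), and among GFP+ cells Lrp6 was 1.41-fold higher in cluster cells. A dimmer Lrp6 probe, above background on all arrays, gave smaller values of the same sign, -0.31 ± 0.14 with GFP in endothelial cells and 0.19 ± 0.20 for the difference between the classes, and with the mean of both probes the latter was not called (adjusted p = 0.0803). Lrp5 ranged from 0.07 to 1.05 over the 8 arrays and was called in no comparison; its GFP+ endothelial arrays were 0.41 and 1.05. Without replicate 1 of that group, or with the slide as a block, it was lower in GFP+ cluster than in GFP+ endothelial cells (adjusted p of 0.00816 and 0.0398). Without that array it was also called higher with GFP in endothelial cells (0.51, adjusted p = 0.0326) and in the interaction (-0.73, adjusted p = 0.0401).

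The secreted antagonists Sfrp1 and Sfrp2, close relatives, moved in opposite directions in GFP+ cluster cells. Sfrp1 was at -3.33 and -3.26 in GFP+ cluster cells, against -2.11 and -2.18 in GFP- cluster cells. In endothelial cells it was at -2.22 and -2.24 with GFP and at -2.34 and -2.46 without. Only the GFP+ cluster arrays were low, and they overlapped no other group. Sfrp1 was 2.22-fold lower with GFP in cluster cells (-1.15 ± 0.061, adjusted p = 0.000135). The difference in endothelial cells was 0.17 ± 0.061 (adjusted p = 0.0589, and 0.0483 without replicate 1 of GFP- endothelial cells). The difference between these, -1.32 ± 0.086, was the largest of the interaction among members above background on all arrays (adjusted p = 0.00133). Among GFP- cells Sfrp1 was called 1.19-fold higher in cluster cells (adjusted p = 0.0346), and this was lost whichever array was left out (adjusted p from 0.0506 to 0.149).

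Sfrp2 was at 0.26 and 0.23 in GFP+ and -0.51 and -0.53 in GFP- cluster cells, and at -0.83 and -0.83 in GFP+ and -1.12 and -0.97 in GFP- endothelial cells. The GFP+ cluster arrays were the highest, without overlap. It was 1.70-fold higher with GFP in cluster cells (0.77 ± 0.059, adjusted p = 0.000466) and 1.16-fold in endothelial cells (0.21 ± 0.059, adjusted p = 0.0285), and the difference between these was called (0.55, adjusted p = 0.00802). The endothelial call was lost without either GFP- cluster array, either GFP+ endothelial array or replicate 1 of GFP- endothelial cells (adjusted p from 0.0527 to 0.0991). Cluster cells exceeded endothelial cells 2.11-fold among GFP+ and 1.44-fold among GFP- cells. Sfrp5 was not above background in GFP+ cluster cells and was at -3.60 and -3.55 in GFP- cluster cells, at least 2.17-fold higher (adjusted p = 0.000728). In endothelial cells it was at -4.29 and -4.48 with GFP and -3.62 and -3.39 without, 1.84-fold lower with GFP (adjusted p = 0.00261).

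Dkk3, a divergent member of the Dkk family, was at -2.71 and -2.70 in GFP+ and -1.60 and -1.61 in GFP- cluster cells, and at -2.01 and -2.00 in GFP+ and -1.47 and -1.29 in GFP- endothelial cells. The groups did not overlap within either class. It was 2.14-fold lower with GFP in cluster cells (-1.10 ± 0.068, adjusted p = 0.000219) and 1.54-fold in endothelial cells (-0.63 ± 0.068, adjusted p = 0.0013). The difference between these (-0.47, adjusted p = 0.0178) lost its call without either GFP- cluster array or either GFP+ endothelial array (adjusted p from 0.0521 to 0.06). Dkk2 marked the endothelial groups, with -2.08 and -2.11 in GFP+ and -2.44 and -2.66 in GFP- endothelial cells against -3.40 and -3.14 in GFP+ and -3.55 and -3.55 in GFP- cluster cells. It was 2.27-fold lower in cluster than in endothelial cells among GFP+ and 2.01-fold among GFP- cells (adjusted p = 0.000616 and 0.00368). Its higher level with GFP in endothelial cells (0.45 ± 0.11, adjusted p = 0.0168) lost its call without either GFP+ endothelial array or replicate 2 of GFP- endothelial cells (adjusted p from 0.0562 to 0.0774). Dkk1, the best known Lrp6 antagonist of the family, stood between -4.40 and -3.90 on all arrays and passed no test. In cluster cells the mesenchyme marker sum was higher without GFP, as Sfrp1, Sfrp5 and Dkk3 were.

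**Figure D3:**
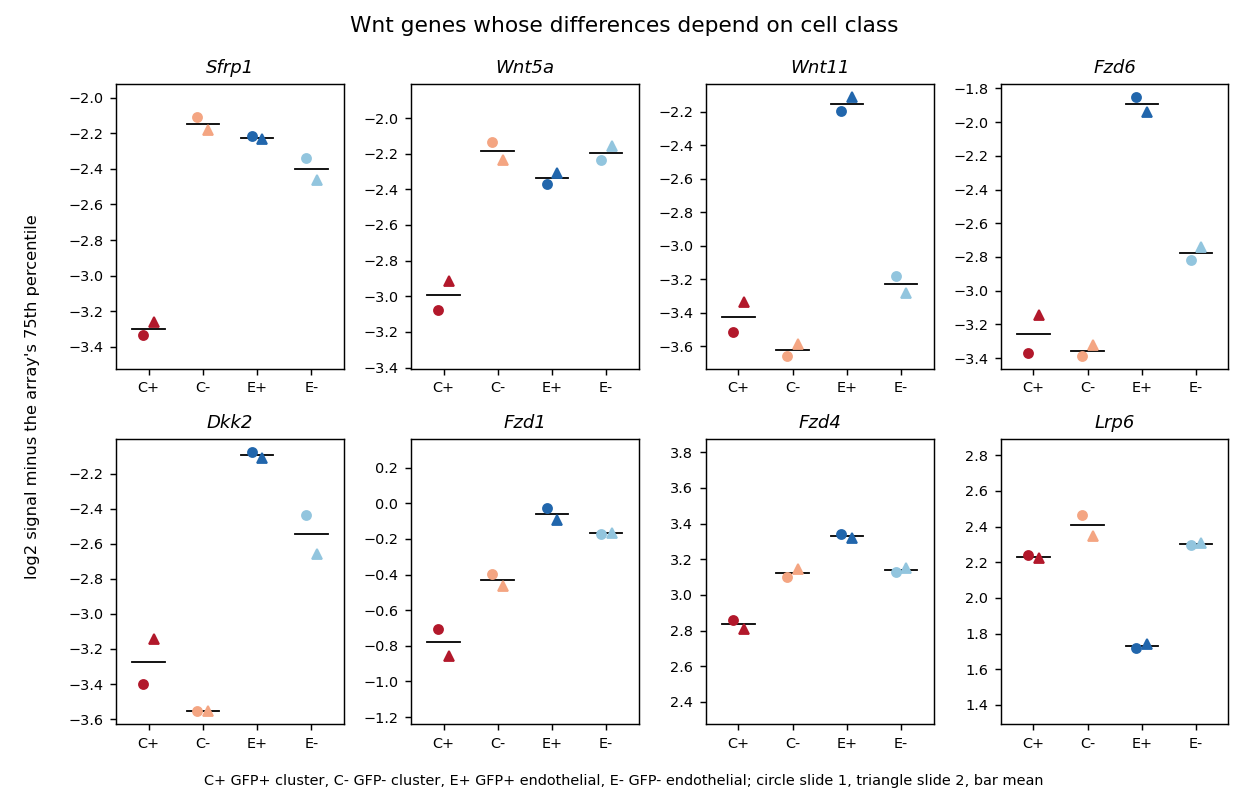
Levels on each array (log2 signal minus the array's 75th percentile) of 8 Wnt genes that differed with cell class, with groups, symbols and bars as C+ and C- (GFP+ and GFP- cluster cells), E+ and E- (GFP+ and GFP- endothelial cells), circles slide 1, triangles slide 2 and bars means; each panel has its own axis. Sfrp1 and Wnt5a are low in GFP+ cluster cells only, Wnt11 and Fzd6 are highest in GFP+ endothelial cells, and Lrp6 is lowest there.

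In the cytoplasm, Ctnnb1, which encodes beta-catenin, was at 3.81 and 3.78 in GFP+ and 4.12 and 4.02 in GFP- cluster cells, and between 4.10 and 4.19 in both endothelial groups. The GFP+ cluster arrays were the lowest. The difference with GFP was -0.27 ± 0.054 in cluster cells (adjusted p = 0.0138) and -0.057 ± 0.054 in endothelial cells (adjusted p = 0.407). After quantile normalization Ctnnb1 was instead called higher with GFP in endothelial cells. The cluster call was lost without replicate 2 of GFP+ or replicate 1 of GFP- cluster cells (adjusted p of 0.0617 and 0.0739), and after quantile normalization (adjusted p = 0.0934). Axin1, a scaffold of the degradation complex, ranged from -1.17 to -0.69 and was called in no comparison of the 8 arrays, and called lower in GFP+ cluster than GFP+ endothelial cells without replicate 2 of GFP+ cluster cells (adjusted p = 0.0228).

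Lef1, the nuclear partner of beta-catenin, was lower with GFP in both classes. It was at -1.35 and -1.36 in GFP+ and -0.17 and -0.21 in GFP- cluster cells, and at -0.75 and -0.63 in GFP+ and 0.23 and 0.23 in GFP- endothelial cells. No groups overlapped, and the GFP+ cluster arrays were the lowest and the GFP- endothelial arrays the highest. GFP+ cells were lower by 2.25-fold among cluster cells (-1.17 ± 0.053, adjusted p = 8.56e-05) and 1.90-fold among endothelial cells (-0.92 ± 0.053, adjusted p = 0.000252). Cluster cells were 1.58-fold below endothelial cells among GFP+ and 1.34-fold among GFP- cells. The difference between the GFP differences was -0.24 ± 0.075 (adjusted p = 0.0565), and was called without replicate 1 of GFP+ endothelial cells (adjusted p = 0.0464) and after quantile normalization (-0.28, adjusted p = 0.0379). The Lef1 probe maps to chr3:130907851-130926012 (mm9), a span of 18162 bases, so it crosses at least 1 intron.

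Tcf7, which encodes the related factor TCF1, was at -2.83 and -3.00 in GFP+ and -2.38 and -2.50 in GFP- cluster cells, and at -3.01 and -3.13 in GFP+ and -2.15 and -2.28 in GFP- endothelial cells. The GFP+ arrays were below the GFP- arrays in each class. The difference was -0.48 ± 0.091 in cluster cells (adjusted p = 0.0122) and -0.85 ± 0.091 in endothelial cells (adjusted p = 0.00123). The cluster call was lost without replicate 2 of GFP+ or replicate 1 of GFP- cluster cells (adjusted p of 0.0528 and 0.0696). The interaction, 0.38 ± 0.13, was not called (adjusted p = 0.0737) but was with the slide as a block (adjusted p = 0.0118), and the same block called Tcf7 higher in cluster cells among GFP+ (0.16, adjusted p = 0.0279) and lower among GFP- cells (-0.22, adjusted p = 0.0227). The erythroid and mesenchyme marker sums were higher without GFP in both classes too, as Lef1, Tcf7, Fzd10, Fzd2 and Fzd7 were.

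**Figure D4:**
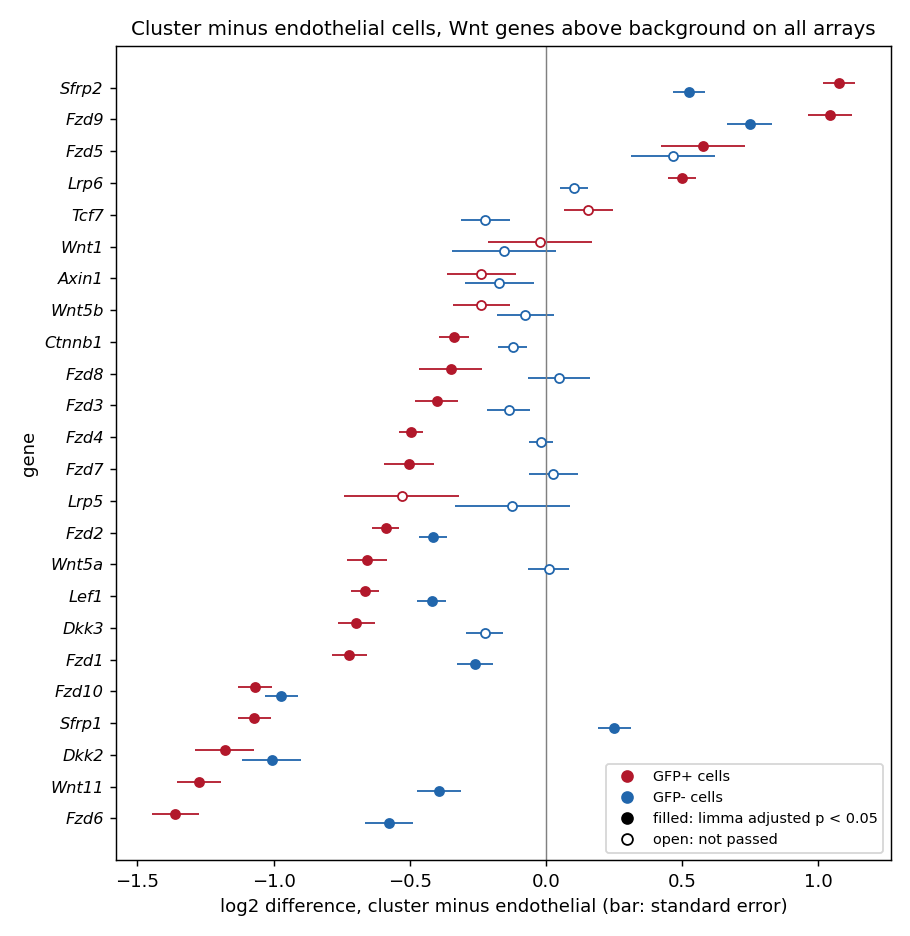
Differences between cluster and endothelial cells on the log2 scale for the 24 Wnt genes above background on all arrays, among GFP+ (red) and GFP- cells (blue). Points are estimates of the fit over 8 arrays, bars their standard errors, and filled points were called. Most red points lie left of 0, down to -1.36 for Fzd6, while Sfrp2 and Fzd9 lie right of 0 at both GFP states, at 1.08 and 1.04 among GFP+ cells.

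The rest of the pathway was followed in 112 other genes, of which 96 were tested. With GFP in cluster cells 11 (11.5%) were higher and 46 (47.9%) lower, against 11.8% and 20.9% of all genes. In endothelial cells 24 (25%) were higher and 29 (30.2%) lower, against 18.2% and 33.3%, so the share lower was near that of all genes. Among GFP+ cells 21 (21.9%) were higher and 40 (41.7%) lower in cluster than in endothelial cells, against 26.1% and 24.2%. Among GFP- cells 23 (24%) were higher, against 11.9%, and 13 (13.5%) lower, near the 12.4% of all genes. The median GFP difference of the 96 in cluster cells was -0.21 (all genes -0.076) and in endothelial cells -0.080 (all genes -0.13). Named here are the 22 that were called by at least 2-fold in a comparison of 2 groups, 13 of them above background on all arrays, and Tcf7l1, Tcf7l2, Ccnd1 and Myc, which were chosen after their values were seen.

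Among 21 tested genes of ligand secretion and the cell surface, 2 (9.52%) were higher and 13 (61.9%) lower with GFP in cluster cells. The shares of all genes there were 11.8% and 20.9%. In endothelial cells 7 (33.3%) were higher and 5 (23.8%) lower, against 18.2% and 33.3% of all genes. Gpc3, a glypican, was lower with GFP in both classes (-0.87 ± 0.07 and -1.03 ± 0.07), and Sost, an Lrp antagonist, was higher in both (1.11 ± 0.14 and 1.82 ± 0.14). Among GFP+ cells, Sost was 2.19-fold and Apcdd1, a membrane-bound inhibitor, 2.32-fold lower in cluster than in endothelial cells. Higher there were Dkkl1, a relative of the Dkk genes, by 2.52-fold and Znrf3, a ubiquitin ligase that removes Frizzled receptors, by 2.12-fold. Rnf43, a ligase of the same kind, was not above background in GFP- endothelial cells and at least 2.19-fold higher in GFP- cluster cells. Lgr4, Lgr5, Gpc4 and Frzb were not above background in GFP+ cluster cells. Lgr4, a receptor of R-spondins, was at least 1.63-fold and Gpc4, another glypican, at least 1.08-fold lower there than in GFP- cluster cells, and Lgr5, a relative of Lgr4, was at least 1.08-fold lower than in GFP+ endothelial cells. Frzb, a secreted antagonist, was called lower in GFP+ cluster cells than in both of these groups, each with 1 array above background, and no bound can be given.

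Of 16 tested genes of beta-catenin independent signalling, 2 (12.5%) were higher and 7 (43.8%) lower with GFP in cluster cells. The shares of all genes tested were 11.8%, near the first, and 20.9% in cluster cells. Ror2, a receptor of Wnt5a, was lower by 1.48 ± 0.054 in log2 units there and by 0.56 ± 0.054 in endothelial cells, with levels of -1.71 and -1.66 in GFP+ and -0.19 and -0.22 in GFP- cluster cells. Ror2 and Wnt5a were thus both low in the GFP+ cluster arrays. Daam2, a formin, was 2.07-fold lower with GFP in cluster cells.

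Of 27 tested cytoplasmic genes 2 (7.41%) were higher and 8 (29.6%) lower with GFP in cluster cells. Of 20 nuclear genes 3 (15%) were higher and 11 (55%) lower there, against 11.8% and 20.9% of all genes tested. Nkd1, an inhibitor that is itself a target, was lower with GFP in both classes (-0.82 ± 0.081 and -1.09 ± 0.081). Dvl3, a scaffold that acts just below the Frizzled receptors, was at -0.77 and -1.45 in GFP+ and 1.19 and 0.51 in GFP- endothelial cells, and at 1.21 and 0.78 in GFP+ cluster cells. It was 3.89-fold lower in GFP+ than in GFP- endothelial cells (adjusted p = 0.00494), with arrays of divided RNA far apart. Cxxc4, an inhibitor of Dvl proteins, was at least 1.81-fold lower in GFP+ cluster than in GFP+ endothelial cells. In the nucleus, the co-repressor relative Tle6 was 2.58-fold higher in cluster than in endothelial cells among GFP+ cells. Of the other nuclear partners of beta-catenin, Tcf7l1 was lower with GFP in cluster cells (-0.36 ± 0.07) and Tcf7l2 in endothelial cells (-0.57 ± 0.099), while their other GFP differences, 0.08 and -0.11, were not called.

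Among 19 tested textbook targets, 2 were higher, near the 11.8% of all genes, and 12 (63.2%, against 20.9%) lower with GFP in cluster cells. In endothelial cells 4 (21.1%) were higher and 5 (26.3%) lower, against 18.2% and 33.3% of all genes. The targets did not share a direction. Prox1, a homeobox factor, was not above background in GFP+ cluster cells and at least 2.84-fold lower there than in GFP- cluster cells. Fgf8, a growth factor, was not above background there either and at least 1.45-fold lower. Ccnd1, a cyclin, was lower with GFP in both classes (-0.70 ± 0.045 and -0.36 ± 0.045). Cd44, an adhesion receptor also made by blood cells, was higher in both (1.86 ± 0.057 and 1.36 ± 0.057), and Myc was higher in endothelial cells (0.53 ± 0.045). Its difference in cluster cells was -0.0034 ± 0.045, and the difference between the classes was called (-0.54, adjusted p = 0.00427). Between the classes among GFP+ cells, Mycn, a relative of Myc, was 2.33-fold and Ascl2, a transcription factor, 2.38-fold higher in cluster cells, and T, the gene for brachyury, was 2.09-fold lower, with 1 of 2 GFP+ cluster arrays above background.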

How the data were processed

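The scanner software was Agilent Feature Extraction 10.10.1.1, per the file headers and the submitters' processing notes. Its deposited intensity values include a processed signal from which background had been removed. A second file of the authors holds normalized intensity, by a method not given in the sources used here. Compared with the scanner values it was linear, with r of log2 values from 0.997 to 1.00 and a median of 198 in each column, so scale and centring are known. It served only as an alternative.

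The processed signal was put on the log2 scale, less the 75th percentile of the non-control spots of its array. The 75th percentiles ran from 708 to 1477. Outlier spots were dropped, which removed 10 probes and none of the members, and repeat spots were averaged, so 43020 spots gave 39419 probes. Gene names came from RefSeq gene tables through the accession for 26151 probes, 3127 more had a name that was current, and the file's name was kept for 10141. A gene was tested where its probe was well above background on the 2 arrays of any group, which held for 19529 genes. Coordinates of probes come from the array files (mm9), and their exon or UTR annotation was not analysed here.

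The comparisons used limma 3.58.1 (R 4.3.3, with files read by the data.table package, version 1.17.8), in a fit over 8 arrays with a mean per group, moderated variances and 4 degrees of freedom left. All tests were two-sided, with Benjamini-Hochberg adjustment at 0.05. Errors are standard errors of that fit with 2 arrays a group, which limits the precision. Where no array of a group was above background, a bound is given. It sets the mean of the bright group against a floor, which on each array is the dim probe's signal or, if higher, the lowest signal of any probe well above background. For Wnt6 and Wnt9b that floor was the dim signal itself, so the fold of the fit is given and not a bound. The procedure was also run on simulated data, in which few genes changed, in GFP+ cluster cells only, with independent noise between arrays. That setting lacks the many calls and the correlated arrays of these data, so nothing is concluded from it. From the erythroid marker list, 1 gene is not reported here. The members and lists were chosen with earlier results of these data known. The text names every member, and of the other pathway genes those called by at least 2-fold in a comparison of 2 groups, with a few chosen after their values were seen.

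Replicate number is the slide, and each slide holds every group. The place of an array on its slide and its group cannot be told apart. Deviations of same-numbered arrays correlated with r from 0.139 to 0.36 over genes, above 0.1 for every 2 groups. The main fit did not use this pairing by number. It entered only in the alternative with the slide as a block. Results were recomputed with normexp background correction (offset 50), with quantile normalization, from the second file of the authors, without the filter on dim probes or with a stricter one, with a gene's probes averaged, with the slide as a block, with only the compared groups fitted, and without each array, where the array left in its group is assumed to vary like those of the other groups.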

Additional observations from a re-analysis of the deposited data

Results flagged for a closer look

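For 11 members the GFP difference itself differed between cluster and endothelial cells in limma's interaction test (31.1% of all genes tested did). Values are the GFP difference in cluster cells minus that in endothelial cells, on the log2 scale. The largest negative value was that of Sfrp1, -1.32 (adjusted p = 0.00133), followed by Wnt11, -0.88 (adjusted p = 0.00534), Fzd6, -0.79 (adjusted p = 0.00872), and Wnt5a, -0.67 (adjusted p = 0.00901). Lower values were also found for Fzd7, -0.53 (adjusted p = 0.0291), Fzd4, -0.48 (adjusted p = 0.00545), Dkk3, -0.47 (adjusted p = 0.0178), and Fzd1, -0.46 (adjusted p = 0.0171). The value was positive for Lrp6, 0.40 (adjusted p = 0.014), and Sfrp2, 0.55 (adjusted p = 0.00802). Wnt8b had a fitted value of 1.80 (adjusted p = 0.0391), which measures no size, since its probe was above background on 3 of 8 arrays and on none of either GFP+ group. Its call was lost under 14 of 15 alternatives (adjusted p up to 0.611), among them with the slide as a block (adjusted p = 0.0507) and without any array but replicate 2 of GFP+ endothelial cells (adjusted p from 0.0536 to 0.112). Fzd1 lost its call without replicate 1 of GFP- cluster cells, replicate 1 of GFP+ endothelial cells or either GFP- endothelial array (adjusted p from 0.0535 to 0.06), and Fzd7 without any array but replicate 2 of GFP- cluster cells and replicate 2 of GFP+ endothelial cells (adjusted p from 0.0512 to 0.0871).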

How the results depend on the processing

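The counts of called members were 17 and 17 with GFP in cluster and endothelial cells, 22 and 11 between classes among GFP+ and GFP- cells, and 11 in the interaction. Leaving out each array gave 11 to 18, 12 to 17, 20 to 23, 7 to 11 and 9 to 10. With the slide as a block, the pairing of same-numbered arrays, they were 17, 17, 25, 13 and 12. That block changed no other call than those given beside Lrp5, Tcf7, Wnt4, Fzd9 and Wnt8b. Normexp correction gave limma 1, 0, 0, 0 and 0 calls (8, 6, 8, 3 and 2 at an unadjusted p under 0.05) and put the median of all genes with GFP in endothelial cells at -0.26, from -0.13, between classes among GFP- cells at -0.18, from 0.0042, and in the interaction at 0.20, from 0.049. On replicate 2 of GFP- endothelial cells, 2 spots had a background far above their signal; without them, an alternative chosen after seeing the data, no direction reversed, and the counts were 16, 14, 20, 9 and 6. Without a filter on dim probes the interaction count was 6.

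Of the 78 calls of a member in a comparison, quantile normalization and the normalized values of the authors each lost 5, the mean of a gene's probes 7, only the compared groups 9, no filter 18 and normexp without the 2 spots 15. Quantile normalization and the authors' values gave the same counts of called members in every comparison, so they are not separate checks.

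Directions reversed as follows. With the mean of a gene's probes, Wnt1 was called at 0.57 with GFP in cluster cells and at 1.42 between classes among GFP+ cells. A dimmer Wnt1 probe, above background on 1 array, alone gave 1.26 and 2.86 there. With the same averaging Fzd7 was 0.036 in the interaction. For Ctnnb1 with GFP in endothelial cells, not called in the main fit, quantile normalization gave 0.17 and a call. So did the normalized values of the authors (0.17). Under the first normexp correction, the GFP difference in endothelial cells was -0.17 for Dkk2, -0.11 for Fzd6, -0.018 for Sfrp2, -0.13 for Wnt11 and -0.19 for Wnt9b. The class difference among GFP- cells was -0.094 for Fzd9 and -0.41 for Sfrp1. In the interaction Dkk3 was 0.013, Fzd6 0.20, Fzd7 0.15, Wnt11 0.23 and Wnt5a 0.16. The cause of these reversals was not tested. Signal over background limits the 20 members that were not above background on all arrays.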
